A study of Mus musculus with 9 samples.

Results

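The 9 genes described here encode transcription factors of the hair lineages: the homeobox genes Dlx1, Dlx2, Dlx3, Msx1 and Msx2, the forkhead gene Foxn1, the zinc finger genes Gata3 and Trps1, and the cut homeobox gene Cux1. They were picked by symbol, and each symbol matched 1 of the 55357 Ensembl gene identifiers of the deposited table. Poly(A) RNA was sequenced in 9 libraries of sorted keratinocytes: 3 are labelled Touchdome, 3 IFE (interfollicular epidermis) and 3 HF (hair follicle). All came from the back skin of C57BL/6 mice at postnatal day 60 that carried TNC-CREER, a tamoxifen-inducible Cre driven by Tenascin-C, and a tdTomato reporter. All mice received tamoxifen at 100 µg per g body weight on postnatal days 51 and 52, so the reporter marks cells that expressed Tenascin-C at that time and their descendants. All sorted cells carried EPCAM and integrin α6. Touchdome cells were then gated as positive for SCA1 and for the reporter, IFE cells were positive for SCA1 and negative for the reporter, and HF cells were negative for both.

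Hair is built by matrix cells at the base of a growing follicle, which divide and then turn into the concentric layers of the inner root sheath and the hair shaft. Signals of the BMP and Wnt families help to set these fates. Of the factors described here, Msx2, Dlx3 and Foxn1 act in the shaft and Gata3 and Cux1 in the inner root sheath. Trps1, a GATA-type repressor, acts across the follicle epithelium. Some of these factors also act in the epidermis, where Foxn1 marks cells that leave the basal layer and Gata3 serves barrier formation. Touch domes are small patches of epidermis beside certain follicles, where Merkel cells meet sensory nerves, and by its title the series compares their Tenascin-C-expressing keratinocytes with the lineages of the epidermis.

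Total expected counts ranged from 9295059 to 28249763 per library. Whether the 3 libraries of a group stem from different mice is not stated in the labels, which also name no batch. The p-values therefore reflect the spread among these libraries, which may be technical. On the first principal component of log2 CPM (counts scaled to library size), with 59.2% of the variance, IFE took the range from -75.4 to -57.5 and HF the range from 89.2 to 98.7. Touchdome replicate 3, at -2.86, stood apart from replicates 1 (-37.6) and 2 (-40.7), on the side of HF. Where a call of the 9 factors, or of a hair gene named below, changed without this library, both values are given. As checks of the labels, the bulge genes Cd34 and Lhx2 were highest in the HF libraries (712 to 895 CPM and 553 to 634 CPM) and lowest in the IFE libraries (1.42 to 2.54 CPM and 5.42 to 6.89 CPM). Merkel cell genes, which no gate selected for, summed to 9.53 CPM or less in every library, but not evenly. The range of the sum was 1.33 to 9.53 CPM for Touchdome, 1.90 to 2.82 CPM for HF and 0.114 to 0.316 CPM for IFE. Only 1 of these genes, Krt8, was tested. It was higher in Touchdome than in IFE (log2 fold change 5.37, adjusted p = 0.0225 from edgeR), also without Touchdome replicate 3. HF likewise exceeded IFE in Krt8 (log2 fold change 4.83). The largest Krt8 value, 7.16 CPM, came from Touchdome replicate 1. In sorted bulk samples, fewer cells of a type and less RNA per cell cannot be told apart.

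To show the kind of promoter behind the factors that were near 0 in IFE and higher in HF, the 250 bases before the RefSeq start of Dlx2 and Msx1 are printed from the RefSeq promoter table of GRCm38.p6, which is not the mm39 build of the deposited counts. Both windows lie outside every RefSeq gene span, and capitals mark CpG pairs.
Dlx2, chr2:71546755-71547004, minus strand: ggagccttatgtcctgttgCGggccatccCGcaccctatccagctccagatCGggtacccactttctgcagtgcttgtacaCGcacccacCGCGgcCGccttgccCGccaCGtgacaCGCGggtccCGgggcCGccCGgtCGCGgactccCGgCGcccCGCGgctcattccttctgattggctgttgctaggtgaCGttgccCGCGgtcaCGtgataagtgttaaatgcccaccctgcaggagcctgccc
Msx1, chr5:37824586-37824835, minus strand: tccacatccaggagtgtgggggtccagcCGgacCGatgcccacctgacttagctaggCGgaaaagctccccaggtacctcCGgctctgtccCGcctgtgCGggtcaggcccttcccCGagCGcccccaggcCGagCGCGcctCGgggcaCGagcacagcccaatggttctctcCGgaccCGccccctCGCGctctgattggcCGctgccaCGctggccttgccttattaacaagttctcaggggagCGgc
The Dlx2 window holds 24 CpG pairs and the Msx1 window 20, against a median of 6 over 32851 promoter windows of that length. Of the 9 factors, 7 had a window in the table, and Dlx3 and Trps1 had none. The 7 windows had a GC content of 61.6% to 70.0%, against a median of 52.4%. The Foxn1 window held 7 CpG pairs, while the windows of Msx2, Cux1, Gata3 and Dlx1 held 16, 18, 19 and 22. The letters CTTTGA and CTTTGT, which LEF1 and TCF factors read, AGATAA, read by GATA factors, and TAATTG, read by Dlx and Msx type homeodomains, were searched on both strands. None of these exact letters occurred in any of the 7 windows. Other spellings were not searched. TGATAA, which differs from AGATAA in its first letter, stands in the Dlx2 window. TAATTA, which differs from TAATTG in its last letter, stands in the Msx2 and Foxn1 windows. The windows are therefore not shown to lack sites of these factors. The searched letters occurred in 13.8%, 16.5%, 9.99% and 7.17% of all windows, in that order, and these shares were not matched for GC content.

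All 9 factors passed the filter on low counts. For Dlx1 and Msx1 only the HF libraries were all above it, so these genes entered the test through the group in which they were high. In HF against IFE, 5 of the 9 factors were higher and 3 lower (edgeR, adjusted p under 0.05), where 17.1% of all 15046 genes tested were higher, 16% lower and 33% called in either direction. The higher factors were Dlx1, Dlx2, Dlx3, Msx1 and Trps1, the lower ones Foxn1, Gata3 and Cux1, and Msx2 was not called. In Touchdome against IFE, 3 factors were higher, Dlx2, Dlx3 and Trps1, where 1.22% of all genes tested were higher and 1.3% called in either direction. With the replicate number as a block, the same 3 factors were called higher and 0 lower, while the genes called over the whole table went from 184 higher and 12 lower to 282 and 67. In that comparison edgeR called 0 factors lower, 1 factor, Cux1, was lower at an unadjusted p under 0.05, DESeq2 called 0 lower, and 0.0798% of all genes tested were lower. In Touchdome against HF, 3 factors were higher, Foxn1, Gata3 and Cux1, and 3 were lower, Dlx3, Msx1 and Trps1, where 11.8% of all genes were higher, 12.8% lower and 24.6% called in either direction. The median log2 fold change of the 9 factors was 2.13 in HF against IFE, 1.12 in Touchdome against IFE and -1.01 in Touchdome against HF, beside medians over all genes of 0.00, 0.00 and -0.00. The comparisons share libraries, so their values are set side by side and not combined.

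Separation of the libraries was also counted without a model, on the CPM scale. In Touchdome against IFE, 4 factors had all Touchdome libraries above all IFE libraries (Dlx2, Dlx3, Trps1 and Foxn1), beside 8.32% of all genes tested, and 1 (Cux1) had them all below, beside 6.27%. In Touchdome against HF, 3 factors lay wholly above (Foxn1, Gata3 and Cux1), beside 21.2%, and 4 wholly below (Dlx1, Dlx3, Msx1 and Trps1), beside 22.2%. Between HF and IFE, 5 factors lay wholly above, beside 24.6%, and 3 wholly below, beside 23.1%. Foxn1 and Cux1 against IFE and Dlx1 against HF were separated in this way but not called by edgeR, so they are not counted as differing. Dlx1 and Msx1 passed the filter only through HF, which favours their separation from HF, so that separation is no further support for them.

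**Figure D1:**
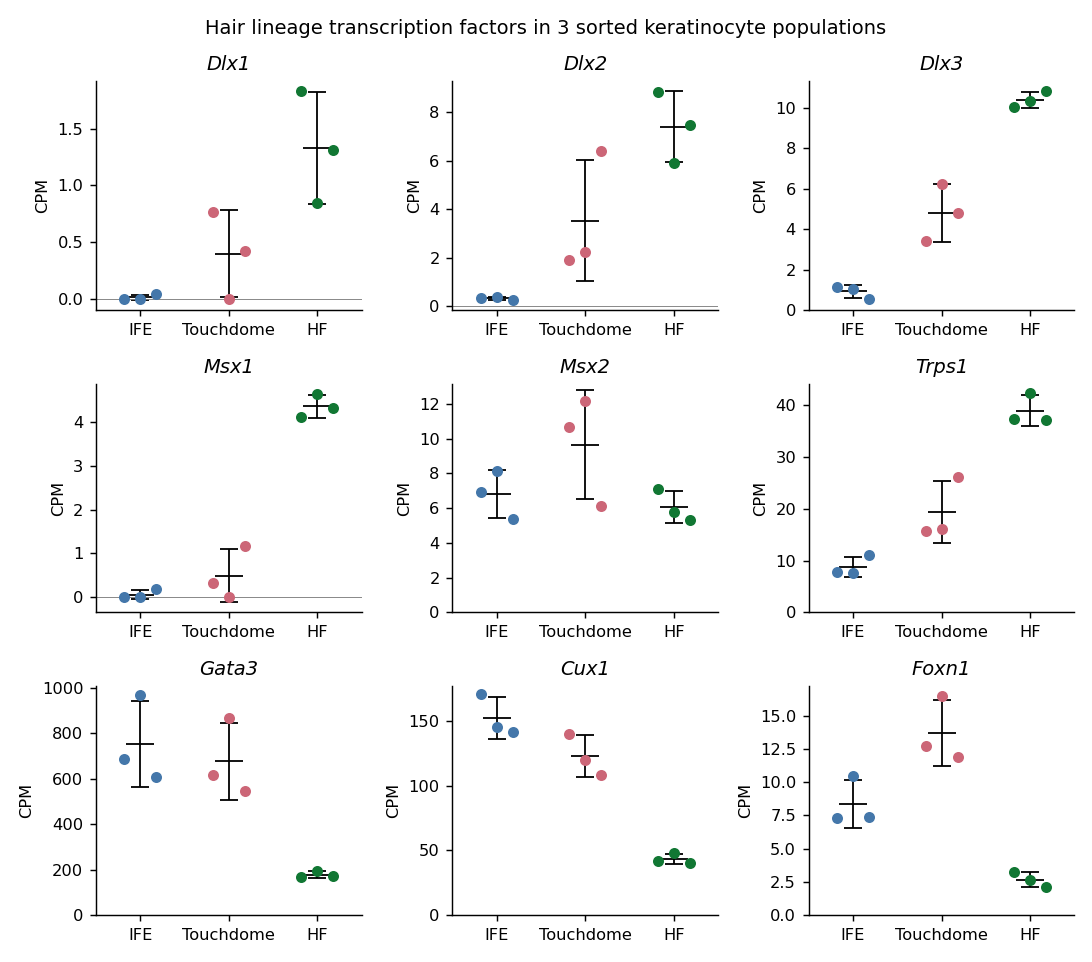
Expression of the 9 factors in CPM (vertical axes, linear) in the IFE, Touchdome and HF libraries. Each point is 1 library, and bars give the mean and SD over 3 libraries. Dlx1, Dlx2, Dlx3, Msx1 and Trps1 were lowest in IFE and highest in HF by group mean, Gata3 and Cux1 were lowest in HF, and Foxn1 had its highest mean, 13.7 CPM, in Touchdome.

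Among the homeobox genes, Dlx3 gave the most even series of levels. Dlx3 is known for its part in the differentiation of hair shaft and inner root sheath, and its loss stops hair formation. It stood at 1.16, 1.06 and 0.530 CPM in IFE replicates 1, 2 and 3, at 3.39, 6.26 and 4.82 CPM in the Touchdome libraries, and at 10.1, 10.3 and 10.8 CPM in the HF libraries. The 3 groups did not overlap, and the HF libraries lay close together. Touchdome exceeded IFE 5.32-fold in Dlx3 (log2 fold change 2.41 ± 0.37 SE; adjusted p = 0.00582 from edgeR, the source of all adjusted p-values below unless another tool is named). This call held in 15 of 16 alternative analyses and ended with only the Touchdome and IFE libraries in the fit (adjusted p = 0.0513, with 1.77e-07 to 0.0513 over the alternatives). Dlx3 was lower in Touchdome than in HF by -1.11 ± 0.33 (adjusted p = 0.0265). That call ended in 6 of 16 alternatives (adjusted p from 0.00631 to 0.120): with limma on log2(TPM + 0.1) at 0.0545, without Touchdome replicates 1 or 3 at 0.120 and 0.0613, and without HF replicates 1, 2 or 3 at 0.0682, 0.0659 and 0.0792. HF exceeded IFE by 3.53 ± 0.37 on the log2 scale (adjusted p = 1.39e-05).

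Dlx2, a homeobox gene best known from forebrain and branchial arch development, was all but absent from IFE. Its IFE libraries held 0.316, 0.352 and 0.265 CPM, its Touchdome libraries 1.92, 2.23 and 6.39 CPM, and its HF libraries 8.82, 5.90 and 7.47 CPM. Every Touchdome library was above every IFE library, and Touchdome replicate 3 lay within the HF range. Dlx2 was higher in Touchdome than in IFE by 3.48 ± 0.54 (adjusted p = 0.00605), an 11.2-fold difference. Without Touchdome replicate 3 the log2 fold change was 2.73 and the call held (adjusted p = 0.00939, with 4.28e-07 to 0.0507 over the 16 alternatives). It ended with limma on log2(TPM + 1), at a log2 fold change of 1.62 and an adjusted p of 0.0507. Against HF, Dlx2 was not called in Touchdome (-1.08 ± 0.45, adjusted p = 0.09996), but without Touchdome replicate 3 it was called lower (-1.84, adjusted p = 0.00605, with 0.00605 to 0.307 over the alternatives). HF exceeded IFE by 4.57 ± 0.54 on the log2 scale (adjusted p = 3.47e-05).

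Dlx1, the neighbour of Dlx2 on chromosome 2, was the rarest of the 9 factors in IFE. It had 0, 0 and 1 counts in IFE replicates 1, 2 and 3, 12, 0 and 5.3 counts in the Touchdome libraries, and 40, 8 and 20 counts in the HF libraries. These correspond to 0.767, 0 and 0.415 CPM in Touchdome and 1.83, 0.843 and 1.31 CPM in HF. For Touchdome replicate 2, the limit that a count of 0 allows was 0.268 CPM, which is 3 counts of its scaled total. HF replicates lay above all other libraries, while Touchdome overlapped IFE. The summed counts gave an HF to IFE ratio of 87.0 with a 95% counting interval of 15.1 to 3485, and a Touchdome to IFE ratio of 26.1 with an interval of 4.09 to 1090.0 (exact, from 1 count in IFE, and covering counting error only). HF against IFE was called (adjusted p = 0.00392), and Touchdome was called neither against IFE (adjusted p = 0.238) nor against HF (adjusted p = 0.232), although limma on log2(TPM + 1) called it lower than HF (adjusted p = 0.0467, with 0.0467 to 0.479 over the alternatives). Its antisense gene Dlx1as had 2, 0 and 4.7 counts in Touchdome and 0, 1 and 0 in HF. The fractional counts of Dlx1 and Dlx1as in Touchdome replicate 3 show reads divided between them, and with no strand setting given for the counting, such shared reads cannot be told apart. All other libraries had whole counts of both genes.

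The genes next to the Dlx pairs were looked up after the data had been examined, by gene order in the RefSeq table of GRCm38.p6. Dlx1 and Dlx2 lie between Metap1d, a mitochondrial aminopeptidase gene, and Itga6, which encodes the integrin α6 used in the sort. Metap1d was not called in any comparison, with 38.7 ± 6.39 CPM in IFE, 40.2 ± 12.3 CPM in Touchdome and 46.5 ± 11.6 CPM in HF (SD, n = 3 each). Itga6 differed from Dlx2 in direction, at 1134 ± 249 CPM in IFE and 422 ± 25.4 CPM in HF (adjusted p = 2.37e-05). Dlx3 has Dlx4 on one side and the integrin gene Itga3 on the other. Dlx4 stood at 1.12 ± 0.0734, 1.11 ± 0.437 and 1.33 ± 1.23 CPM in IFE, Touchdome and HF and was not called. Itga3, at 526 ± 48.1 CPM in IFE and 263 ± 12.2 CPM in HF, was lower in HF (adjusted p = 6.53e-05).

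The Msx genes, homeobox genes that respond to BMP signals, differed from each other in pattern. Msx1 was read in every HF library at 4.11, 4.64 and 4.32 CPM. The Touchdome libraries held 0.320, 0 and 1.16 CPM and the IFE libraries 0, 0 and 0.189 CPM, from 5 counts in IFE replicate 3. HF lay apart from all other libraries, and Touchdome and IFE overlapped. In summed counts the HF libraries held 200, the Touchdome libraries 19 and the IFE libraries 5, which gave an HF to IFE ratio of 51.2 with a 95% counting interval of 21.6 to 159. Msx1 was higher in HF than in IFE (log2 fold change 5.68 ± 1.13, adjusted p = 0.00192), and without IFE replicate 3, which leaves 0 counts in IFE, the call held (adjusted p = 0.00260, with 4.04e-07 to 0.00773 over the alternatives). Touchdome was lower than HF by -3.12 ± 0.96 (adjusted p = 0.0318, with 0.000471 to 0.113 over the alternatives). This call ended in 5 of 16 alternatives, without Touchdome replicates 1 or 2 (0.113 and 0.0614) or HF replicates 1, 2 or 3 (0.0795, 0.0787 and 0.0762), and held without Touchdome replicate 3 at a log2 fold change of -4.57. Touchdome against IFE was not called (2.56 ± 1.17, adjusted p = 0.465), and its log2 fold change was 1.11 without Touchdome replicate 3.

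Msx2 is needed to keep the hair shaft growing and acts upstream of Foxn1 there. It was read at like levels everywhere: 6.94, 8.16 and 5.38 CPM in IFE, 10.7, 12.2 and 6.14 CPM in Touchdome, and 7.08, 5.80 and 5.31 CPM in HF. The 3 groups overlapped, and Touchdome replicates 1 and 2 were above all other libraries. No comparison was called: the log2 fold change was 0.51 ± 0.29 in Touchdome against IFE (adjusted p = 0.619), 0.67 ± 0.29 in Touchdome against HF (adjusted p = 0.124) and -0.16 ± 0.29 in HF against IFE (adjusted p = 0.713). Without Touchdome replicate 3, Msx2 was called higher in Touchdome than in HF (0.91, adjusted p = 0.0337, with 0.0337 to 0.366 over the alternatives).

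Trps1, a GATA-type zinc finger repressor whose loss in people causes sparse hair, had the same order of populations as Dlx2 and Dlx3. Its IFE libraries stood at 7.73, 7.60 and 11.1 CPM, its Touchdome libraries at 15.8, 16.1 and 26.2 CPM, and its HF libraries at 37.3, 42.5 and 37.2 CPM. No library of one group overlapped another group, and the highest Touchdome value was again that of replicate 3. Trps1 was 2.18-fold higher in Touchdome than in IFE (log2 fold change 1.12 ± 0.22, adjusted p = 0.0230). That call ended in 6 of 16 alternatives (adjusted p from 0.000330 to 0.332). These were leaving out Touchdome replicate 3 (0.84, adjusted p = 0.0798), IFE replicate 1 (1.03, 0.109) or IFE replicate 2 (1.03, 0.0720), the fit with only the 2 groups (0.0974), and limma on log2(TPM + 1) and on log2(TPM + 0.1) (0.332 and 0.268). Trps1 was lower in Touchdome than in HF by -1.01 ± 0.21 (adjusted p = 0.00368) and higher in HF than in IFE by 2.13 ± 0.22 (adjusted p = 1.16e-05), and both calls held in all 16 alternatives.

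The bulge genes Cd34 and Lhx2 had the same order of populations as Dlx2, Dlx3 and Trps1, and replicate 3 was their highest Touchdome library, as for Dlx2 and Trps1. Cd34, a surface protein of bulge cells, stood at 1.42, 1.76 and 2.54 CPM in IFE, at 20.1, 23.8 and 98.8 CPM in Touchdome and at 712, 792 and 895 CPM in HF. Lhx2, a factor of follicle stem cells, stood at 5.42, 6.89 and 5.53 CPM, at 23.7, 29.6 and 77.3 CPM, and at 634, 607 and 553 CPM in the same order. Both were higher in Touchdome than in IFE (adjusted p = 0.0356 and 0.0213), and without Touchdome replicate 3 their log2 fold changes were 3.49 and 2.17 (adjusted p = 6.01e-06 and 2.90e-05). With all 9 libraries 2 of 8 bulge and hair germ genes were called higher, beside 1.22% of all genes tested. With the replicate block or without Touchdome replicate 3, 4 were called. The calls for Cd34 and Lhx2 ended in 6 and 4 of the 9 fits that leave out 1 library, without any 1 IFE library for both, without any 1 HF library for Cd34, and without HF replicate 3 for Lhx2 (adjusted p up to 0.182 and 0.143). Between HF and IFE 7 of the 8 were higher in HF, beside 17.1% of all genes tested. Krt15, a keratin of basal and bulge cells, made up most of the summed level and was not higher in Touchdome (5964 ± 510.2 CPM, against 8190 ± 1645 CPM in IFE and 8676 ± 495 CPM in HF). The other 7 genes summed to 3063 to 3112 CPM in the HF libraries, 261 to 691 CPM in the Touchdome libraries and 179 to 186 CPM in the IFE libraries. On this measure, which leaves out Krt15, all Touchdome libraries lay between IFE and HF. With Krt15 the 8 genes summed to 5903 to 6813 CPM in Touchdome, below both IFE (7325 to 10269 CPM) and HF (11218 to 12058.5 CPM). The part of bulge and germ cells in the levels of Dlx2, Dlx3 and Trps1 was not tested.

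**Figure D2:**
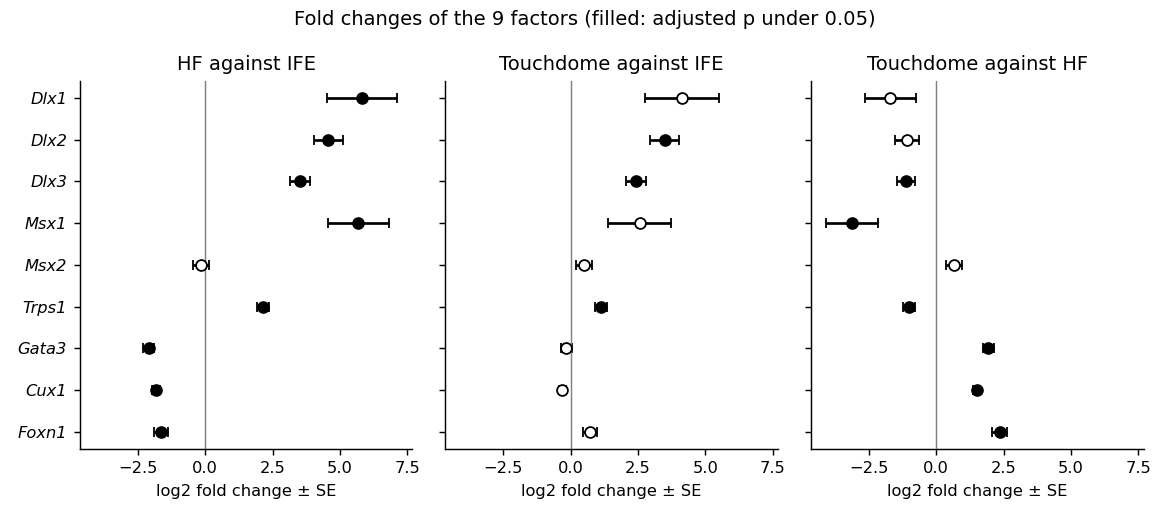
Log2 fold changes ± SE (horizontal axes) of the 9 factors in HF against IFE, Touchdome against IFE and Touchdome against HF, from the fit over 9 libraries. Filled points had an adjusted p under 0.05. In Touchdome against IFE the filled points are Dlx2 (3.48), Dlx3 (2.41) and Trps1 (1.12).

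The other 3 factors were higher in both SCA1-positive populations than in HF. Gata3, which specifies the inner root sheath and also serves the epidermis and T cells, was the most abundant of the 9 on the length-scaled TPM scale in every group. It stood at 386 ± 64.9 TPM in IFE, 387 ± 102 TPM in Touchdome and 107 ± 9.83 TPM in HF, above 98.0%, 98.0% and 91.0% of the genes tested. On the CPM scale the IFE libraries held 688, 969 and 607, the Touchdome libraries 615, 870.2 and 547, and the HF libraries 166, 194 and 173. IFE and Touchdome overlapped, and every HF library was below both. Gata3 was 3.81-fold higher in Touchdome than in HF (1.93 ± 0.20, adjusted p = 2.92e-05) and was lower in HF than in IFE by -2.08 ± 0.21 (adjusted p = 1.02e-05). The difference between Touchdome and IFE was -0.16 ± 0.20 and not called (adjusted p = 0.885), and without IFE replicate 2 it was 0.06 (adjusted p = 0.966, with 0.527 to 0.997 over the alternatives).

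T cell markers were checked beside Gata3. The summed level of the 8 T cell genes was 122 to 154 CPM in Touchdome, 116 to 205 CPM in IFE and 8.39 to 12.0 CPM in HF. In Touchdome and IFE nearly all of it was Thy1, a surface protein that is not limited to T cells, and the 7 genes without Thy1 summed to 7.24 to 12.1, 6.21 to 8.86 and 2.10 to 7.06 CPM. Cd3e, a subunit of the T cell receptor complex, stood at 2.28 ± 1.43, 1.15 ± 0.778 and 0.182 ± 0.163 CPM in Touchdome, IFE and HF, where Gata3 stood at 677 ± 170.4, 755 ± 190.2 and 178 ± 14.5 CPM. Of the 6 T cell genes tested, 2 were lower in HF than in IFE, beside 16% of all genes tested. In Touchdome against HF 2 were higher, beside 11.8%. For Cd3e the call between HF and IFE (adjusted p = 0.0493) ended with any 1 library left out except IFE replicate 1, and the call between Touchdome and HF (0.0140) ended without Touchdome replicate 1 (0.0760). Their part in the Gata3 levels was not tested.

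Cux1 encodes a homeodomain protein known for repression and for a role in the inner root sheath. It stood at 171, 145 and 141 CPM in IFE, at 140.1, 120.0 and 108 CPM in Touchdome, and at 42.0, 47.7 and 39.8 CPM in HF. On the CPM scale Touchdome lay just below IFE without overlap, and HF lay far below both. In TPM, Touchdome (63.78, 61.25 and 50.55) and IFE (74.18, 60.97 and 62.16) overlapped, so their separation depends on the scale. Cux1 was 2.85-fold higher in Touchdome than in HF (1.51 ± 0.13, adjusted p = 4.74e-06) and lower in HF than in IFE by -1.82 ± 0.13 (adjusted p = 6.99e-07). Between Touchdome and IFE it was not called (-0.31 ± 0.13, adjusted p = 0.391), in a comparison where 14.6% of all genes tested had no overlap between the groups.

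On the CPM scale, Foxn1 was the 1 factor called between HF and IFE whose Touchdome mean lay outside the range from IFE to HF. Mutation of Foxn1 gives the nude mouse, whose hair shafts break at the skin surface, and in the epidermis the gene is switched on as cells leave the basal layer. Its IFE libraries stood at 7.31, 10.5 and 7.34 CPM, its Touchdome libraries at 12.7, 16.5 and 11.9 CPM, and its HF libraries at 3.24, 2.63 and 2.10 CPM. The 3 groups did not overlap, with Touchdome highest and HF lowest. Touchdome was 5.11-fold above HF (2.35 ± 0.27, adjusted p = 4.85e-05), and HF was below IFE by -1.64 ± 0.27 (adjusted p = 0.000465). The difference between Touchdome and IFE, 0.71 ± 0.25, did not pass (adjusted p = 0.286, and 0.173 to 0.552 over the alternatives). Suprabasal markers were split. Krt1 and Krt10, keratins of the spinous layer, had the same order of populations as Foxn1, with Krt1 at 1551 ± 217 CPM in IFE, 2215 ± 335 CPM in Touchdome and 214 ± 35.6 CPM in HF. Sbsn and Ivl, genes of later differentiation, were highest in HF, with Sbsn at 268 ± 100.4, 471 ± 60.1 and 688 ± 85.4 CPM. Krtdap, another suprabasal gene, and Lor and Flg, genes of later differentiation, instead had their highest mean in Touchdome and their lowest in HF. Krtdap stood at 57.2 ± 25.2, 105 ± 34.6 and 26.5 ± 2.20 CPM in IFE, Touchdome and HF. Lor, at 55.7 ± 57.5, 62.1 ± 58.5 and 32.7 ± 38.1 CPM, and Flg, at 3.65 ± 2.04, 5.69 ± 3.99 and 3.35 ± 2.30 CPM, overlapped among the groups. The summed level of 7 genes, most of it Krt1 and Krt10, ranged over 6169 to 8283 CPM in Touchdome, 4041 to 5799 CPM in IFE and 1728 to 1966 CPM in HF. Of these 7 genes, 3 were higher in Touchdome than in HF, beside 11.8% of all genes tested. In HF against IFE 3 were lower and 2 higher, beside 16% and 17.1%. In Touchdome against IFE 0 were called by edgeR, and 5 were higher at an unadjusted p under 0.05. There, 3 were higher by DESeq2 and 2 were higher with the replicate block. Their part in the Foxn1 levels was not tested.

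On the log2 CPM scale, the place of Touchdome between IFE (0) and HF (1) was computed for the 8 factors called between HF and IFE, as a description with no test. Touchdome lay at 0.699 for Dlx2, 0.667 for Dlx3 and 0.515 for Trps1, the 3 factors that were also called against IFE. That call by itself requires a place above 0. Touchdome lay at 0.454 for Dlx1 and 0.273 for Msx1, whose Touchdome replicate 2 had 0 counts. The median over the 1710 genes called higher in HF than in IFE by at least 2-fold was 0.286, a set not limited to genes called in Touchdome against IFE. For the factors lower in HF, Touchdome lay at 0.0757 for Gata3, 0.174 for Cux1 and -0.439 for Foxn1, beside a median of 0.102 over 993 genes called lower in HF by at least 2-fold. Touchdome replicate 3 was the library nearest to HF for Dlx2 (0.954), Msx1 (0.619), Trps1 (0.736), Gata3 (0.212), Cux1 (0.270) and Foxn1 (-0.321). For Dlx3 the nearest was replicate 2 (0.788), and for Dlx1 it was replicate 1 (0.808).

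**Figure D3:**
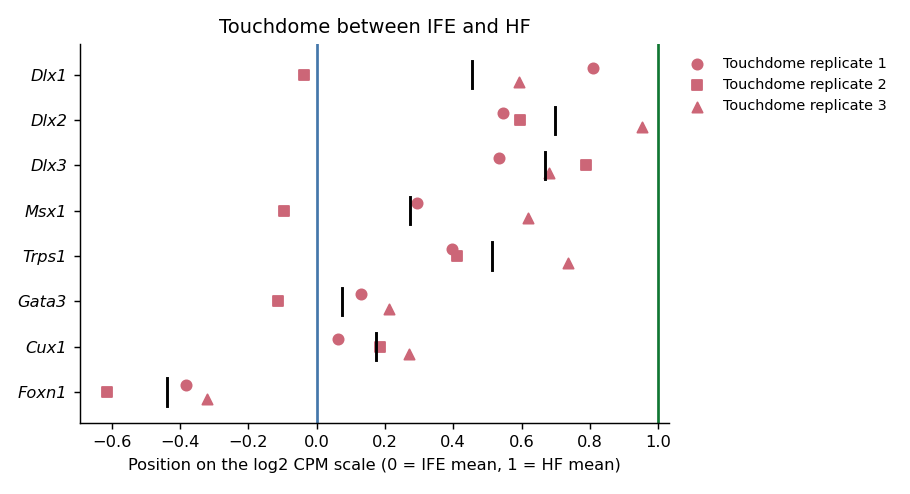
Place of each Touchdome library on the log2 CPM scale (horizontal axis), where 0 is the IFE mean and 1 the HF mean, for the 8 factors called between HF and IFE. Points are libraries and black bars the Touchdome mean, which is 0.699 for Dlx2, 0.667 for Dlx3 and -0.439 for Foxn1.

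Ordered by TPM, a scale on which genes can be compared, the 9 factors took different ranks in the 3 populations. Gata3 and Cux1 led everywhere, with Cux1 at 65.8 ± 7.31 TPM in IFE, 58.5 ± 7.02 TPM in Touchdome and 20.4 ± 2.18 TPM in HF. In HF they were followed by Trps1 (9.03 ± 1.85 TPM), Dlx3 (7.41 ± 0.187 TPM), Dlx2 (5.78 ± 1.295 TPM), Msx2 (4.68 ± 0.785 TPM) and Msx1 (4.34 ± 0.261 TPM), and among these neighbours the ranges of mean ± SD overlapped except between Dlx3 and Dlx2. Dlx1 (2.02 ± 0.592 TPM) and Foxn1 (1.51 ± 0.340 TPM) came last in HF and overlapped each other. In Touchdome, Foxn1 (7.42 ± 1.41 TPM) and Msx2 (7 ± 2.27 TPM) came next, ahead of Trps1 (4.07 ± 1.81 TPM), Dlx3 (3.28 ± 1.02 TPM) and Dlx2 (2.94 ± 1.64 TPM), and neighbours in this order did not differ beyond their spread. Dlx1 and Msx1 stood at 0.677 ± 0.589 and 0.470 ± 0.574 TPM there. In IFE, Msx2 (4.47 ± 0.815 TPM) and Foxn1 (4.07 ± 0.641 TPM) were followed by Trps1 (1.74 ± 0.461 TPM), Dlx3 (0.567 ± 0.218 TPM) and Dlx2 (0.200 ± 0.0265 TPM), with Msx1 and Dlx1 at 0.0533 ± 0.0924 and 0.00667 ± 0.0115 TPM. There Msx2 and Foxn1 overlapped, as did Msx1 and Dlx1, while Foxn1, Trps1, Dlx3 and Dlx2 were apart beyond their SD.

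Relatives of the 9 factors were read from a list of 13 other Dlx, Msx, Foxn, Gata and Cux genes, of which 6 were tested. No count of Dlx6, Msx3, Foxn4, Gata2, Gata4 or Gata5 was read in any of the 9 libraries, where 3 counts correspond to 0.114 to 0.316 CPM. Gata6, a GATA factor of the upper follicle and sebaceous duct, was lower in Touchdome than in HF (-1.51 ± 0.44, adjusted p = 0.0403) and higher in HF than in IFE (2.04 ± 0.45, adjusted p = 0.00911). The call against Touchdome ended with any 1 library left out except Touchdome replicate 3, without which it was -2.24 (adjusted p = 3.34e-05, with 3.34e-05 to 0.113 over the 9 fits). Its levels were 19.5 ± 2.51 CPM in IFE, 28.1 ± 19.5 CPM in Touchdome and 80.1 ± 19.8 CPM in HF, so Gata6 and Gata3 differed in opposite directions between HF and IFE. All 7 sebaceous gland markers were also higher in HF than in IFE, beside 17.1% of all genes tested. They summed to 733 to 1597 CPM in HF, 304 to 366 CPM in Touchdome and 252 to 318 CPM in IFE. Their part in the Gata6 levels was not tested. Foxn3 was lower in HF, like Foxn1, at 132 ± 19.8 CPM against 277 ± 10.5 CPM in IFE (-1.07 ± 0.13, adjusted p = 4.15e-05), and it was higher in Touchdome than in HF (0.84 ± 0.13, adjusted p = 0.000424). Dlx4, Dlx5, Foxn2 and Cux2 were not called in any comparison. Dlx5 stood at 6.70 ± 0.294, 6.81 ± 1.62 and 10.2 ± 2.87 CPM in IFE, Touchdome and HF, Foxn2 at 43.4 ± 8.50, 45.2 ± 6.76 and 44.2 ± 4.91 CPM, and Cux2 at 0.853 ± 0.505, 1.15 ± 0.345 and 2.27 ± 1.31 CPM. Against IFE in Touchdome, edgeR called 0 of the 6 relatives, 0 passed at an unadjusted p under 0.05, and DESeq2 called 0.

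Other regulators of hair differentiation were read from a list of 13 genes, of which 11 were tested. Between HF and IFE, 7 of the 11 were higher in HF and 2 lower, beside 17.1% and 16% of all genes tested. The median log2 fold change was 1.74. Lef1, the nuclear partner of β-catenin in the hair shaft precursors, stood at 11.3 ± 3.45 CPM in HF, 0.694 ± 0.584 CPM in Touchdome and 0.0361 ± 0.0352 CPM in IFE (HF against IFE adjusted p = 5.84e-06). Prdm1, a transcriptional repressor, stood at 20.6 ± 2.45, 2.51 ± 1.49 and 0.846 ± 0.416 CPM in the same order (adjusted p = 1.07e-05), and Runx1, a factor of the follicle stem cells, at 176 ± 12.6, 65.1 ± 25.4 and 32.7 ± 7.57 CPM (adjusted p = 4.90e-05). In Touchdome against HF, 7 were lower, beside 12.8% of all genes tested. Only 1, Foxq1, was higher (1.12 ± 0.19, adjusted p = 0.000867), beside 11.8%. Foxq1, mutated in satin mice with a faulty shaft medulla, stood at 85.5 ± 18.3 CPM in IFE, 82.4 ± 16.7 CPM in Touchdome and 37.9 ± 6.12 CPM in HF. In Touchdome against IFE, 1 of the 11, Lef1, was higher (4.08 ± 0.87, adjusted p = 0.0389), beside 1.22% of all genes tested. Of the 11, 0 were lower by edgeR, at an unadjusted p under 0.05 or by DESeq2. At an unadjusted p under 0.05, 5 were higher, and DESeq2 called 4 higher, and the replicate block left Lef1 and added Runx1. The Lef1 call, from 2 counts in IFE, ended with any 1 library left out except Touchdome replicate 2, and without Touchdome replicate 3 it was 3.29 (adjusted p = 0.152, with 0.0143 to 0.152 over the 9 fits).

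Signals that act on the hair lineages were read from 13 genes, of which 12 were tested. HF had 4 of them higher and 6 lower than IFE, beside 17.1% and 16% of all genes tested, with a median log2 fold change of -0.27. Wnt3, a Wnt ligand, stood at 200.2 ± 6.88 CPM in IFE, 196 ± 44.5 CPM in Touchdome and 3.56 ± 0.898 CPM in HF (HF against IFE adjusted p = 4.90e-09). Bmp4 stood at 62.1 ± 11.0, 46.0 ± 8.63 and 1.28 ± 0.771 CPM (adjusted p = 4.45e-07), and Wnt10a at 225 ± 24.7, 175.5 ± 15.998 and 51.2 ± 10.9 CPM (adjusted p = 7.63e-07). The genes higher in HF were Nog, Bmp6, Edar and Jag1, named after their values were seen. Nog, which encodes the BMP antagonist noggin, stood at 1.39 ± 0.986, 4.04 ± 1.46 and 51.5 ± 4.28 CPM in IFE, Touchdome and HF (HF against IFE adjusted p = 9.25e-06), Bmp6 at 0.265 ± 0.248, 0.822 ± 0.2195 and 12.6 ± 0.671 CPM (1.74e-05), Edar, the ectodysplasin receptor gene, at 0.772 ± 0.411, 0.635 ± 0.263 and 11.6 ± 5.06 CPM (9.44e-05), and Jag1, a Notch ligand gene, at 164 ± 29.3, 191 ± 22.1 and 303 ± 10.1 CPM (0.000354). In Touchdome against HF, 4 were higher and 4 lower, beside 11.8% and 12.8% of all genes tested. Of the 12, edgeR called 0 in Touchdome against IFE, DESeq2 called 1 higher and 1 lower, 2 were higher and 4 lower at an unadjusted p under 0.05, and with the replicate block Wnt10b was lower. Shh, the Hedgehog ligand that a growing follicle makes in its matrix, was not tested and stood at 0.629 ± 0.595 CPM in HF, 0.166 ± 0.288 CPM in Touchdome and 0.0252 ± 0.0437 CPM in the IFE libraries.

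Most hair shaft genes, which encode the keratins and other proteins of the hair fibre, had too few counts to test. Of 17 on the list, 16 had an identifier with that symbol, and 2, Krt32 and S100a3, passed the filter on low counts. The hair keratin genes Krt33b, Krt34 and Krt82, the peptidylarginine deiminase gene Padi3 and the receptor gene Gprc5d had 0 counts in all 9 libraries. The 16 genes summed to 11.1 to 11.5 CPM in HF, 11.3 to 14.2 CPM in Touchdome and 9.79 to 23.1 CPM in IFE, and most of that was Krt32. Krt32, a keratin of the shaft cuticle, stood at 6.91 ± 0.969 CPM in HF, below IFE at 14.9 ± 6.35 CPM (adjusted p = 0.0113, and 0.0526 without IFE replicate 2, with 0.00181 to 0.0526 over the 9 fits that leave out 1 library). In Touchdome it stood at 10.7 ± 1.97 CPM, called against neither. S100a3, a calcium-binding protein of the cuticle, was higher in HF, at 3.23 ± 0.867 CPM, than in IFE at 0.478 ± 0.277 CPM (adjusted p = 0.00878) and in Touchdome at 0.662 ± 0.371 CPM (adjusted p = 0.0287). The call against Touchdome ended in 4 of 9 fits that leave out 1 library: Touchdome replicate 1, Touchdome replicate 3 (0.0560), HF replicate 2 or HF replicate 3 (adjusted p from 0.0185 to 0.0999).

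Of 10 genes of the inner root sheath and companion layer, 7 were tested. Between HF and IFE, 2 were higher in HF and 0 lower by edgeR, beside 17.1% and 16% of all genes tested. At an unadjusted p under 0.05, 3 were higher and 0 lower, and by DESeq2 2 were higher and 0 lower. Krt75, the companion layer keratin gene, stood at 5.95 ± 1.71 CPM in HF, 0.622 ± 0.756 CPM in Touchdome and 0.177 ± 0.117 CPM in IFE (HF against IFE adjusted p = 0.000427, Touchdome against HF 0.00547). Krt26 stood at 0.585 ± 0.328 CPM in HF and 0.0252 ± 0.0437 CPM in IFE, from 2 counts in IFE (adjusted p = 0.0289), and this call ended without IFE replicates 1 or 2 or HF replicates 1 or 3 (0.0174 to 0.0874 over the 9 fits). Its Touchdome libraries held 1.92, 2.06 and 0.166 CPM, with replicate 3 low. Krt26 was not called in Touchdome against IFE (adjusted p = 0.0770), and without Touchdome replicate 3 it was (0.0397, with 0.0397 to 0.241 over the 9 fits). The inner root sheath keratin gene Krt73 was higher in Touchdome than in HF (4.48 ± 1.13, adjusted p = 0.0111), at 1.98, 1.52 and 7.47 CPM in Touchdome replicates 1, 2 and 3 against 0 to 0.274 CPM in HF. Without Touchdome replicate 3, the highest library, it was 3.45 and not called (adjusted p = 0.0765, with 0.00792 to 0.0765 over the 9 fits). Against IFE, where it ranged from 0 to 0.265 CPM, Krt73 did not pass (adjusted p = 0.0577). Of the 7, edgeR called 0 in Touchdome against IFE, while 2 were higher at an unadjusted p under 0.05 and 2 by DESeq2, without Touchdome replicate 3 edgeR called 1 higher, Krt26, and with the replicate block 1, Krt73. Tchh, which encodes trichohyalin of the inner root sheath and medulla, was the most abundant of the list at 18.9 ± 3.19, 20.5 ± 8.09 and 23.2 ± 5.77 CPM in IFE, Touchdome and HF and was not called.

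**Figure D4:**
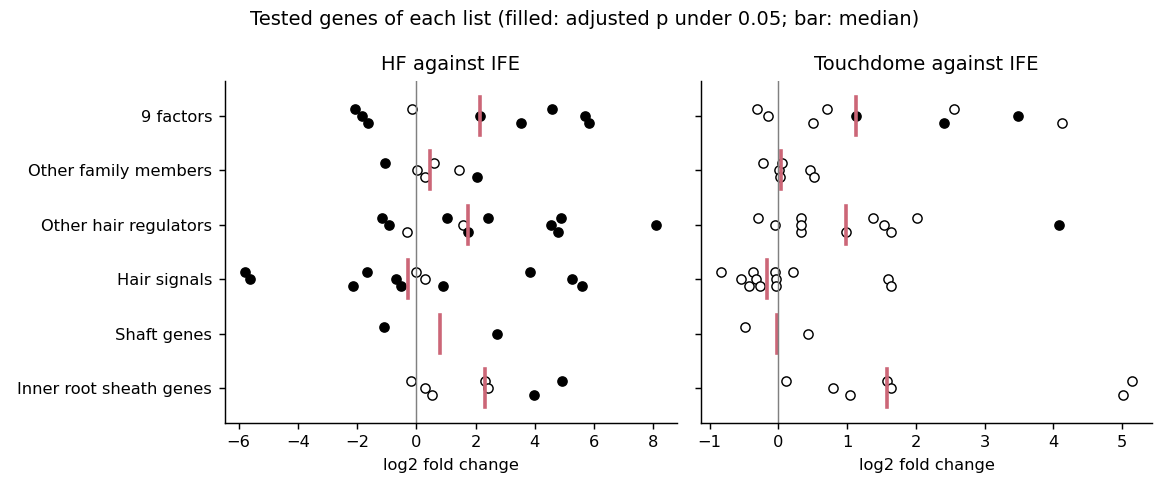
Log2 fold changes (horizontal axes) of the tested genes of 6 lists in HF against IFE and in Touchdome against IFE. Points are genes, filled where the adjusted p was under 0.05, and bars are list medians, which for the 9 factors were 2.13 and 1.12.

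Markers of other cells were read beside these results. The 6 fibroblast genes did not move together. Col1a2, a collagen gene, stood at 0.297 ± 0.349, 18.5 ± 3.11 and 65.2 ± 9.98 CPM in IFE, Touchdome and HF. Col1a1 stood at 0.723 ± 0.365, 12.4 ± 16.2 and 11.0 ± 4.12 CPM. Dcn, which encodes decorin, was read in Touchdome (21.8 ± 4.80 CPM) but hardly in IFE (0.118 ± 0.172 CPM) or HF (0.0218 ± 0.0378 CPM). Col3a1 stood at 0.251 ± 0.375, 7.87 ± 10.2 and 0.262 ± 0.454 CPM in IFE, Touchdome and HF, Pdgfra at 0.124 ± 0.159, 1.13 ± 0.621 and 1.11 ± 0.552 CPM, and Lum had 0 counts in Touchdome and HF. Dcn and Col1a2 were higher in Touchdome than in IFE (adjusted p = 8.84e-05 and 0.000182), and 3 genes were called with the replicate block. Between HF and IFE, 3 of the 5 tested were higher in HF, beside 17.1% of all genes tested. These were Col1a2 (adjusted p = 8.51e-07), Col1a1 (0.0255) and Pdgfra (0.0410). With 1 library left out, the Col1a1 and Pdgfra calls held in 4 and 3 of 9 fits. The list summed to 45.3 to 90.2 CPM in Touchdome, 62.2 to 87.1 CPM in HF and 0.844 to 2.95 CPM in IFE, and without Col1a2 to 30.0 to 68.7 CPM, 8.11 to 15.2 CPM and 0.684 to 2.27 CPM. Of the melanocyte genes, Mitf, which is not limited to melanocytes, carried most of the level, at 98.9 ± 12.5 CPM in HF, 15.3 ± 7.88 CPM in Touchdome and 9.91 ± 2.83 CPM in the IFE libraries. The other 5 summed to 5.21 to 25.2 CPM in HF, 5.63 to 25.99 CPM in Touchdome and 2.31 to 3.24 CPM in IFE, and Dct (adjusted p = 0.0202) and Tyrp1 (0.0173) were higher in HF than in IFE, calls that held in 5 and 7 of the 9 fits that leave out 1 library. The 7 proliferation genes, which mark dividing cells such as those of a hair matrix, summed to 287 to 335 CPM in HF, 739 to 1174 CPM in Touchdome and 655 to 1037 CPM in IFE. All 7 were lower in HF than in IFE, beside 16% of all genes tested. The 5 Langerhans cell genes summed to 68.9 to 441 CPM in HF, 161 to 352 CPM in Touchdome and 126 to 276 CPM in IFE, and 0 were called in any comparison. HF replicate 3 stood apart, with Cd207 at 0.852 CPM, against 21.4 and 21.8 CPM in HF replicates 1 and 2. The 3 endothelial genes summed to 2.56 CPM or less in every library. The part of these cells in the levels of the 9 factors was not tested.

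For each factor, genes among the 3 whose log2 CPM was most like it over the 9 libraries are given as a description. All points share libraries and the split into 3 populations, which sets much of each coefficient. Foxn1 was most like Krt10, the suprabasal keratin gene (Pearson's r = 0.991), and Tepsin (0.982). Krt10 stood at 2974 CPM in IFE, 4372 CPM in Touchdome and 853 CPM in HF by group mean. Trps1 was most like Dse (0.996), Ctnnd2 (0.996) and Insyn1 (0.995). Dlx3 was most like Snrpn (0.978), Klhl22 (0.978) and Crispld1 (0.977), and Dlx2 most like Chrd (0.981), which encodes the BMP antagonist chordin, Col5a1 (0.977) and Parp8 (0.977). Msx1 was most like Itgb8 (0.993), Osbpl6 (0.993) and BC026762 (0.992), and Dlx1 most like Scrg1 (0.985), Fgd2 (0.984) and Rogdi (0.973). Gata3 was most like Exosc6 (0.997), which is at 0 in HF, Paqr5 (0.996) and Lsr (0.991), and Cux1 most like Tsc22d1 (0.998), the zinc finger gene Bcl11b (0.995) and Serpinb2 (0.995). For Msx2 the nearest were Dnase1l3 (0.913), Ly6g6e (0.909) and Bcl2l14 (0.904), with lower coefficients than for the other 8 factors.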

How the data were processed

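The deposited table covers 9 libraries. Its expected counts, as the authors deposited them, are unscaled estimates of reads per gene; its TPM values, also deposited, are scaled to length and carry no depth. The submitters' processing notes list the build mm39 and the tools RSEM 1.3.3, STAR 2.7.9a and DESeq2 1.38.2 without roles; annotation and strand setting: not given in the sources used here. Fractional counts show that shared reads were divided, so near-identical and overlapping genes are uncertain. A mouse gene name table gave symbols to 52081 of 55357 identifiers, and the rest, 0.673% to 2.13% of a library's counts, stayed in the fit.

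Counts were rounded. filterByExpr of edgeR 4.0.16 (R 4.3.3; minimum count 10, total 15) left 15046 genes. All 9 libraries entered 1 robust quasi-likelihood fit with TMM factors, tested on simulated data, and Benjamini-Hochberg adjustment ran over all 15046 of them (threshold 0.05). SE is the log2 fold change divided by the root of the test's F. CPM are at the TMM-scaled library size, and log2 CPM has a prior count of 2. Replicates of a group did not agree within sampling noise (chi-square per degree of freedom 16.8 to 73.6). All 9 factors are named; of the hair lists, called genes with the smallest p (at most 3 per comparison) or else up to 2 of highest level are named by rule. Marker lists are given by counts and sums, with genes named after their values were seen, as were further hair genes. The factors and lists were chosen with earlier results of these data known. The 16 alternatives used DESeq2 1.42.0, limma 3.58.1, RLE factors, no filter, only 2 groups, a replicate block, and each library left out. Of the genes most like each factor in level (the 3 of highest Pearson's r over the 9 libraries), 1 is not reported here. Whether replicate numbers pair libraries was checked by the correlation of their deviations from the group means: same-numbered Touchdome and IFE libraries correlated at 0.146 to 0.203 and differently numbered ones at -0.128 to -0.0406, so the numbers were taken as pairs for that comparison from the data, not the labels. With HF they were not (-0.0257 to 0.0701). A block fit of Touchdome and IFE alone was added after the data were seen.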

Additional observations from a re-analysis of the deposited data

How the results depend on the processing

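Over the 27 fold changes (9 factors, 3 comparisons), 430 alternative values were obtained, of which 405 kept direction and side of the threshold, 19 lost the call, 3 gained one and 3 reversed. The reversed values, none of them called, were Gata3 in Touchdome against IFE without IFE replicate 2 (0.0627, against -0.379 to 0.0627 over the left-out libraries) and Msx2 in HF against IFE with limma on log2(TPM + 1) and log2(TPM + 0.1) (0.0577 and 0.0699). In HF against IFE, 5 factors were higher and 3 lower under all 16 alternatives. In Touchdome against IFE, 3 were higher, but 1 when the fit held 2 groups and 1 with limma on log2(TPM + 1); the count was 2 to 3 with 1 library left out. In Touchdome against HF, 3 were lower, but 1 to 3 with 1 library left out: 1 without Touchdome replicate 1 or any 1 HF library. The cause was not tested. Over all genes, Touchdome against IFE gave 184 higher and 12 lower, while DESeq2 gave 446 and 84, a fit of 2 groups 100 and 5, limma on log2(TPM + 1) 100 and 0, limma on log2(TPM + 0.1) 0 lower, no filter 49 lower, and leaving out 1 library 105 to 216 higher and 4 to 29 lower. In HF against IFE, limma called 1209 and 1219 lower, against 2401. The replicate block gave 282 higher and 67 lower in Touchdome against IFE, and a block fit of those 6 libraries, chosen after seeing the data, gave 372 and 134. Neither pairing changed a call of a factor that was tested: Dlx2, Dlx3 and Trps1 were called in both, and Dlx1 and Msx1 fell below the filter in the second. Low counts limit Dlx1 and Msx1 outside HF.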
